A study of Mus musculus with 6 samples.

Results

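Nuclear genes for the subunits of the mitochondrial oxidative phosphorylation complexes were compared between microglia of wild-type (WT) mice and of mice labelled IRF8KO. Members were chosen by name alone: protein-coding genes with the symbol prefixes Ndufa, Ndufb, Ndufc, Ndufs, Ndufv, Uqcr, Atp5 and Cox4 to Cox8, together with Cyc1 and Sdha to Sdhd. This gave 94 of the 49585 genes in the files, of which 38 belong to complex I, 4 to complex II, 9 to complex III, 18 to complex IV and 17 to complex V. The other 8 are Ndufaf genes, whose products assemble complex I and are not part of it, and the complex V count includes Atp5s, which is not a subunit either. That leaves 85, called subunits here, although Cox7a2l among them is a factor that joins complexes rather than a standard subunit. Ndufa4 is kept with complex I by its name, although its protein is now placed in complex IV. Another 11 genes with these prefixes are not classed as protein-coding and stayed out.

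The study profiled sorted microglia, the resident macrophages of the brain, from male mice aged 3 months, with 3 WT libraries and 3 IRF8KO libraries. IRF8 is a transcription factor of macrophages and their relatives, and the labels give neither the knockout allele nor the strain. Cells were isolated from each brain without enzymes, sorted by flow cytometry into TRIzol, and turned into SMART-Seq v4 cDNA, a full-length method for small amounts of polyadenylated RNA, and Nextera XT libraries. The series has a single contrast, IRF8KO against WT.

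Oxidative phosphorylation passes electrons from NADH and succinate through complexes I to IV to oxygen, pumps protons across the inner mitochondrial membrane on the way, and lets complex V make ATP from the returning protons. A small set of core subunits carries the flavins, iron-sulfur clusters, hemes and nucleotide sites that do the chemistry. Many small accessory subunits surround them and serve in assembly, stability and regulation. Most subunits are encoded in the nucleus and the remainder in mitochondrial DNA, and a few complex IV and complex V subunits exist as isoforms from separate genes that are used in different tissues.

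The member with the largest difference between the genotypes, Cox6a2, is one of these isoforms, usually described as the heart and skeletal muscle form of subunit 6a, beside the widely used Cox6a1. The end of both coding sequences is shown because the pair could be confused in counting. It covers coding bases 205 to 336 of 336 in Cox6a1 and 160 to 291 of 291 in Cox6a2, read from the GENCODE principal transcripts, and capitals mark the bases at which the aligned pair differs.
Cox6a1: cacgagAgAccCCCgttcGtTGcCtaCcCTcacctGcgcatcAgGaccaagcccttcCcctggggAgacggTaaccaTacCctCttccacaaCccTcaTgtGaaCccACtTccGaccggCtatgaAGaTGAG
Cox6a2: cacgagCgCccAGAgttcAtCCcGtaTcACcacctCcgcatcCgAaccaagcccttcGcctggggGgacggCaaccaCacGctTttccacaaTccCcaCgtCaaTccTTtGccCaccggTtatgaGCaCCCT
In this stretch 95 of 132 bases were identical and 37 differed. Over all 291 aligned coding bases the identity was 64.6%, and the longest exact run shared by both principal transcripts was 12 bases.

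Promoters of 76 of the 94 members were found in the RefSeq table of GRCm38.p6. NRF1 and ETS-family factors such as GABP are textbook regulators of respiratory chain genes, so their motifs were searched on both strands from 250 bases before to 50 after the start. The promoters of a complex IV member and a complex III member are shown because both genes rose in IRF8KO. Both hold an ETS match, and Cox6a1 holds NRF1 matches as well. The 250 bases before the start of Cox6a1 lie at chr5:115348959-115349208 and those of Uqcrh at chr4:116075071-116075320, both on the minus strand of GRCm38.p6. Capitals mark the motifs found.
Cox6a1: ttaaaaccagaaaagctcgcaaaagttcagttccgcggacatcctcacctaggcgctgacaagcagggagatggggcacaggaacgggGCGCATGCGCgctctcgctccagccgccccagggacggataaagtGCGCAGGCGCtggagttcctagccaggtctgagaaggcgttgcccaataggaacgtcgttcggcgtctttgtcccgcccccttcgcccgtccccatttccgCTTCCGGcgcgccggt
Uqcrh: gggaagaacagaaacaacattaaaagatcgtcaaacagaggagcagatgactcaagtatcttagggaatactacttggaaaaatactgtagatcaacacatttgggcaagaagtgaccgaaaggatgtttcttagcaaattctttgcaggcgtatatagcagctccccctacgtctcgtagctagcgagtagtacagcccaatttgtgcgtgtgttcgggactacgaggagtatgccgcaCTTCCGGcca
The first run of capitals in Cox6a1 is the full NRF1 motif, the next is a match with 1 inner base left free, read on the other strand, and the last is the ETS letters CCGGAAG on the other strand. Uqcrh holds the ETS letters alone. The NRF1 motif with the free base, which takes in every full match, was present in 25% of the members' promoters and in 12.5% of those of all tested genes. For the ETS letters the shares were 23.7% and 21.8%, and for the YY1 letters AAGATGG they were 15.8% and 9.01%. The TATA letters TATAAA stood in 9.21% of the members' promoters and 8.29% of those of tested genes. Among members called higher in IRF8KO and members tested and not called, the shares were 7.14% and 12.9% for the full NRF1 motif, 26.2% and 25.8% with the free base, 28.6% and 19.4% for ETS, 21.4% and 9.68% for YY1, and 7.14% and 6.45% for TATA. These differences were not tested. A match describes these letters in this window and no more.

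Read totals over genes ranged from 3658917 to 10859529 in WT and from 8994860 to 11098363 in IRF8KO. Levels are given as CPM, counts per M (1000 times 1000) reads of the library size scaled by the TMM method. Irf8 itself was counted at 795, 851 and 1403 CPM in WT and at 743, 650 and 850 CPM in IRF8KO, so the groups overlapped. A count over the whole gene cannot check the labels when the deleted part is not given, and IRF8KO stands throughout for the libraries so labelled. Apoe took 0.154% to 0.324% of the gene counts in WT and 25.5% to 33.7% in IRF8KO. The 12 homeostatic microglia markers summed to between 44161 and 72064 CPM in WT and between 33174 and 46413 CPM in IRF8KO, with 6 markers lower, 1 higher and Sall1 at 0 in all 3 IRF8KO libraries. Markers of border-associated macrophages summed to between 612 and 838 CPM in WT and between 4149 and 5438 CPM in IRF8KO, and all 9 tested of 12 were higher. Of these 9, 4 (Cd163, Clec4n, F13a1 and Ms4a7) passed the filter on low counts only with their IRF8KO counts, Cd163 and F13a1 were at 0 in every WT library, and Lyve1 and Cd209f were at 0 in every library. Neuron markers summed to at most 14.6 CPM in WT and to between 33.6 and 56.4 CPM in IRF8KO. Red blood cell markers summed to 0, 0 and 57.6 CPM in WT and to 53.8, 96.5 and 437 CPM in IRF8KO, where replicate 3 stood apart. Lymphocyte markers summed to between 519 and 859 CPM in WT and between 33.0 and 45.1 CPM in IRF8KO. Neutrophil markers summed to at most 0.195 CPM in WT and to 5.78, 366 and 2.06 CPM in IRF8KO, where replicate 2 stood apart. Endothelial and mural cell markers summed to between 26.5 and 29.4 CPM in WT and between 50.3 and 68.7 CPM in IRF8KO. Sums for monocytes, at most 28.7 and 56.0 CPM, and those for astrocytes and oligodendrocytes overlapped between the groups. Single markers did pass, with 5 of 8 tested astrocyte genes higher and 1 lower, 1 of 7 oligodendrocyte genes higher and 1 lower, and 3 of 5 neuron genes higher. Of 3 tested lymphocyte genes 1 was higher and 2 lower, and of 4 endothelial and mural genes 1 was higher and 1 lower. Among all these, 4 astrocyte, 2 oligodendrocyte, 5 neuron, 1 lymphocyte and 1 endothelial or mural gene passed the filter only with their IRF8KO counts. The part of these cells in the results below was not tested, and in bulk samples fewer cells of a type and less RNA per cell cannot be told apart.

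Most of the tested nuclear genes of the respiratory chain and the ATP synthase rose in IRF8KO. The calls fell on 47 subunits outside the core or catalytic set and on the assembly factor gene Ndufaf8. None of the core or catalytic subunits was called in this test, although some were under other settings given below. Of the 94 members, 88 had enough reads to be tested. Of these, 48 were called higher in IRF8KO, or 54.5%, and 0 were called lower, at a Benjamini-Hochberg adjusted p under 0.05 in edgeR's quasi-likelihood test over all genes. The 48 include Cox6b2, which passed the filter on low counts only through its IRF8KO counts, and without it they are 47 of 87. Other fits given below called between 15 (principal-transcript offset for GC content and length) and 65 members (without WT replicate 3) higher. Among all 11041 tested genes, 9.64% were called higher and 9.46% lower by the same rule, or 19.1% in all. At an unadjusted p under 0.05 the members counted 59 higher and 0 lower, against 1760 and 1957 of all 11041 tested genes. DESeq2 and limma-voom called 54 and 50 members higher and 0 lower, against 12.1% and 10.9% of all tested genes called higher. The median log2 fold change was 1.14 over the tested members and -0.11 over all tested genes. The fold change was above 0 in 80 members and below 0 in 8. All 3 IRF8KO values lay above all 3 WT values in 60 members, or below them in 1, the assembly factor gene Ndufaf7, against 20% and 17.9% of all tested genes. Without strand, 12 tested members, 8 of them called, are uncertain because other genes cover over 10% of their exonic length. Likewise 23 members, 14 of them called, share over 10% of their stretches of 50 bases with another gene or pseudogene.

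**Figure D1:**
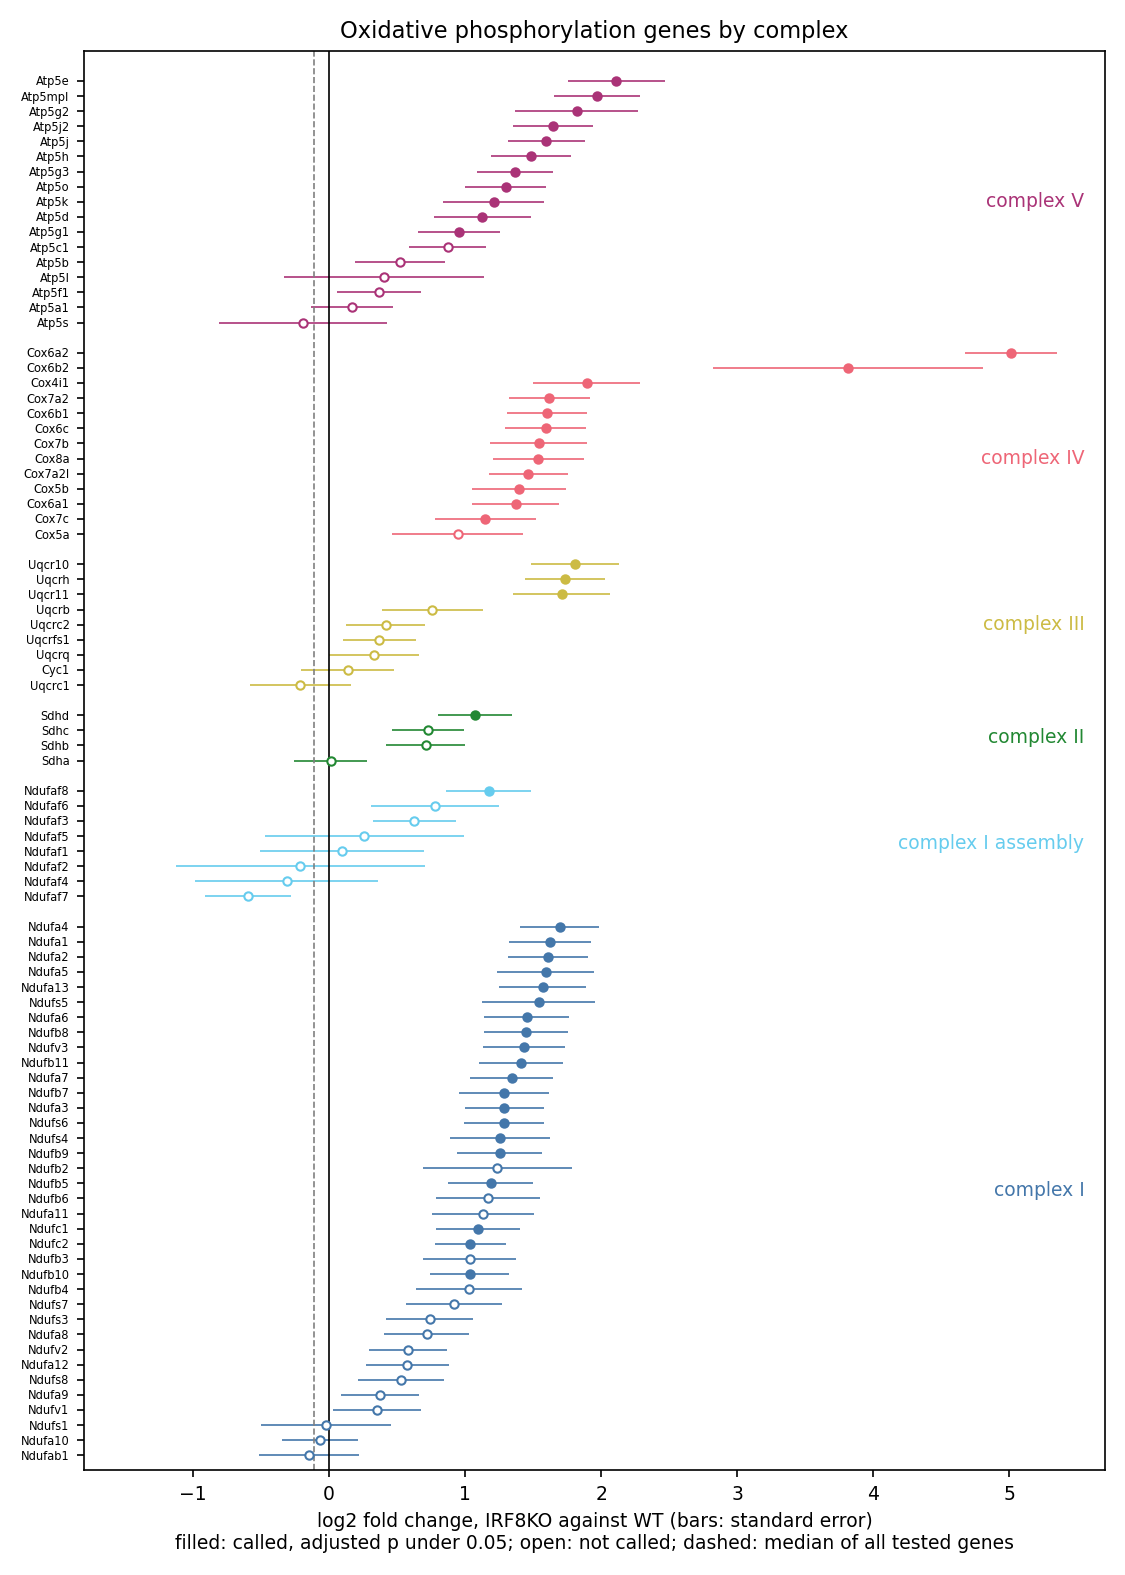
Log2 fold change of IRF8KO against WT for 87 of the 88 tested members, grouped by complex, with bars for the standard error (3 libraries per group), filled points for genes called and open points for genes not called, and a dashed line at the median of all tested genes. Complex IV has 12 filled points of 13, complex III has 3 of 9, and Cox6a2 at 5.01 stands to the right of every other member. With library size alone as scaling, the medians of complex III and of the assembly factors fall below 0.

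The accessory subunits of complex I, which build the shell around its core, account for all the calls in that complex. Of 30 tested accessory members, 20 were called higher, with a median log2 fold change of 1.25 (all 37 tested complex I genes had 1.17). Over those 37 the count of 20 became 31 without WT replicate 3, 11 without WT replicate 1 or 2, 12 without IRF8KO replicate 1 and 6 without IRF8KO replicate 3. With the exonic and the principal-transcript offset described below it became 10 and 5, with medians of 0.42 and 0.22. Ndufa4 had 35.2, 37.0 and 46.5 CPM in WT and 131, 96.9 and 157 CPM in IRF8KO. Every IRF8KO library was more than 2 times as high as every WT library. The log2 fold change was 1.70 with a standard error of 0.29 (edgeR adjusted p = 0.00204). Ndufa1, a small membrane subunit encoded on the X chromosome, had 18.7, 22.7 and 31.0 CPM in WT and 73.7, 61.0 and 88.8 CPM in IRF8KO. The groups were again separate, and the log2 fold change was 1.62 ± 0.30 (SE, edgeR adjusted p = 0.00347).

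Ndufa2, one of the subunits with the highest level per kb of exon in the complex, had 51.9, 55.4 and 74.6 CPM in WT and 193, 143 and 219 CPM in IRF8KO. Its log2 fold change was 1.61 ± 0.29 (SE, edgeR adjusted p = 0.00297). Ndufa13, an accessory subunit also known from studies of cell death, had 53.9, 69.2 and 104 CPM in WT and 183 to 257 CPM in IRF8KO. It rose by 1.57 on the log2 scale (edgeR adjusted p = 0.00528), and 30.0% of its exonic length is shared with Tssk6, whose reads cannot be told apart from it without strand. Ndufv3, an accessory subunit of the NADH-binding arm with a longer transcript of 1582 bases, rose from 34.1 ± 8.65 to 92.0 ± 18.7 CPM (SD, n = 3 in each group; edgeR adjusted p = 0.00635). The other called accessory members were Ndufa3, Ndufa5, Ndufa6, Ndufa7, Ndufb5, Ndufb7 to Ndufb11, Ndufc1, Ndufc2 and Ndufs4 to Ndufs6. Ndufa8, Ndufa9, Ndufa11, Ndufa12, Ndufb2, Ndufb3, Ndufb4 and Ndufb6 had log2 fold changes from 0.37 (Ndufa9) to 1.24 (Ndufb2) and did not pass. The 2 accessory members below 0 were Ndufa10 at -0.07 and Ndufab1, the mitochondrial acyl carrier protein, at -0.15.

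The 7 nuclear core subunits of complex I include those that bind the flavin and the iron-sulfur clusters. None was called in this test, whereas Ndufs3, Ndufs7, Ndufs8, Ndufv1 and Ndufv2 were without WT replicate 3, Ndufs7 and Ndufs8 with the Apoe reads left out of the library size, and Ndufs7 with at least 10 counts required in every library. Their median log2 fold change was 0.53. Ndufs8, an iron-sulfur subunit and the core member with the highest level per kb of exon, had 168, 151 and 281 CPM in WT and 298, 239 and 329 CPM in IRF8KO. The groups overlapped with WT replicate 3 above IRF8KO replicate 2, and the log2 fold change of 0.53 ± 0.31 (SE) did not pass (edgeR adjusted p = 0.262). With an offset for GC content and length in each library its fold change turned to -0.21. The core subunits Ndufs7, which holds an iron-sulfur cluster, and Ndufs3, which holds none, had log2 fold changes of 0.92 and 0.74 (edgeR adjusted p = 0.0901 and 0.127). At the other end, Ndufs1, the largest core subunit, had 13.6 ± 5.60 CPM in WT and 13.4 ± 6.70 CPM in IRF8KO (mean ± SD of 3 libraries). Ndufv1 and Ndufv2, which belong to the NADH-oxidizing arm, had log2 fold changes of 0.35 and 0.58.

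Of the 8 complex I assembly factors 1 was called. The count was 0 without WT replicate 1 or 2 and without IRF8KO replicate 1 or 3, and 2 without WT replicate 3. Ndufaf8 had 18.9, 26.1 and 36.9 CPM in WT and 59.1, 53.8 and 71.9 CPM in IRF8KO. The groups were separate, and the log2 fold change was 1.17 ± 0.31 (SE, edgeR adjusted p = 0.0227). The other uncalled factors, Ndufaf1, Ndufaf2 and Ndufaf4 to Ndufaf6, had WT means of at most 6.36 CPM. The median over the 8 was 0.18 (-0.34 with library size alone as scaling), and Ndufaf3 with 0.63 did not pass (edgeR adjusted p = 0.174). Ndufaf7, a mitochondrial methyltransferase, had 32.7, 28.3 and 28.7 CPM in WT and 24.9, 15.3 and 19.2 CPM in IRF8KO, separate downward, with a log2 fold change of -0.60 that did not pass (edgeR adjusted p = 0.209).

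Complex II, succinate dehydrogenase, is shared with the citric acid cycle, and the membrane anchor Sdhd was its one called member. Without WT replicate 1 or 2, or without IRF8KO replicate 1 or 3, 0 were called, and without WT replicate 3 there were 3. Sdhd had 90.3, 96.2 and 104 CPM in WT and 209, 167 and 236 CPM in IRF8KO. The WT values lay close together and well below all IRF8KO values, and the log2 fold change was 1.07 ± 0.27 (SE, edgeR adjusted p = 0.0164). Sdhc, the other anchor, had 47.5, 61.2 and 62.7 CPM in WT and 102, 84.0 and 97.7 CPM in IRF8KO. These groups were separate too, but the gene did not pass in this test (edgeR adjusted p = 0.0752). The iron-sulfur subunit Sdhb had 142, 172 and 223 CPM in WT and 299, 241 and 339 CPM in IRF8KO (edgeR adjusted p = 0.109). The flavoprotein Sdha, which holds the active site, had 236 ± 29.8 CPM in WT and 238 ± 23.1 CPM in IRF8KO (mean ± SD of 3 libraries), with a log2 fold change of 0.01 (edgeR adjusted p = 0.983).

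Complex III, which passes electrons from ubiquinol to cytochrome c, had 33.3% of its members called. The 3, Uqcrh, Uqcr10 and Uqcr11, are small accessory subunits with transcripts of 547, 434 and 445 bases. Uqcrh, the hinge protein beside cytochrome c1, had 29.6, 29.7 and 40.7 CPM in WT and 119, 84.1 and 129 CPM in IRF8KO. The lowest IRF8KO value was more than 2 times the highest WT value, and the log2 fold change was 1.73 ± 0.29 (SE, edgeR adjusted p = 0.00189). Uqcr10 had 25.7, 36.8 and 52.1 CPM in WT and 141, 107 and 155 CPM in IRF8KO, a log2 fold change of 1.81 (edgeR adjusted p = 0.00263). Uqcr11 had 49.2, 69.9 and 123 CPM in WT and 290, 215 and 287 CPM in IRF8KO, a log2 fold change of 1.71 (edgeR adjusted p = 0.00618). Both were separate between the groups, with WT replicate 3 the highest WT library.

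The other 6 members of complex III did not pass. Cyc1, the heme-bearing cytochrome c1, had 150, 170 and 315 CPM in WT and 284, 179 and 234 CPM in IRF8KO. The groups overlapped, and the log2 fold change was 0.14 (edgeR adjusted p = 0.816). Uqcrc1, a large matrix-side subunit, had 248, 297 and 647 CPM in WT and 396, 300 and 335 CPM in IRF8KO, with WT replicate 3 above every other library. Its log2 fold change was -0.21 (edgeR adjusted p = 0.730). Uqcrc2 at 0.42, the Rieske iron-sulfur protein gene Uqcrfs1 at 0.37, Uqcrb at 0.76 and Uqcrq at 0.33 did not pass either. The median log2 fold change of the 9 members was 0.42, and -0.10 with library size alone as scaling.

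Complex IV, cytochrome c oxidase, had the highest share of called members in this test. With the GC and exonic length offset described below it had 8 of 13 called and complex V 11 of 17, with medians of 0.94 and 1.20, so the order of these complexes turned. With the principal-transcript offset they had 5 of 13 and 3 of 17, with medians of 0.67 and 0.44, and complex IV again stood above complex V. Complex II then had 2 of 4 called. The catalytic subunits of complex IV are encoded in mitochondrial DNA, and its 13 tested nuclear members had transcripts of 540 to 1076 bases. Of 13 tested members 12 were called, or 11 of 12 without Cox6b2, with a median log2 fold change of 1.54. Without IRF8KO replicate 3 the 12 fell to 5, and without WT replicate 1 or IRF8KO replicate 1 to 8. Cox4i1, the largest nuclear subunit and a site of regulation by nucleotides, had 105, 138 and 283 CPM in WT and 680, 490 and 783 CPM in IRF8KO. All IRF8KO values were above all WT values despite the high WT replicate 3, and the log2 fold change was 1.89 ± 0.39 (SE, edgeR adjusted p = 0.00632). Cox6b1, on the intermembrane face, had 72.0, 66.3 and 97.5 CPM in WT and 228, 196 and 290 CPM in IRF8KO, a log2 fold change of 1.60 (edgeR adjusted p = 0.00307).

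Most other widely used complex IV subunits were called as well. Cox7a2 and Cox6c had log2 fold changes of 1.62 and 1.59 (edgeR adjusted p = 0.00314 and 0.00347). Cox5b and Cox7c had 1.39 and 1.15 (edgeR adjusted p = 0.0152 and 0.0484). Cox8a, a small membrane-spanning subunit, and Cox7b had 1.54 each (edgeR adjusted p = 0.00791 and 0.0111). Cox7a2l, which is not a standard subunit but a factor that joins complexes III and IV in supercomplexes, had 1.47 (edgeR adjusted p = 0.00479). Cox5a, with 7.86 ± 3.46 CPM in WT (SD, n = 3), was the tested member that did not pass, at 0.95 (edgeR adjusted p = 0.190).

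Cox6a2 had the largest fold change of all members. It had 2.33, 3.54 and 2.76 CPM in WT and 98.7, 81.5 and 106 CPM in IRF8KO. Every IRF8KO library was thus above 80 CPM and every WT library below 4 CPM. The log2 fold change was 5.01 ± 0.34 (SE), or 32.3-fold (edgeR adjusted p = 3.38e-06). Cox6a1 had 115, 127 and 204 CPM in WT and 408, 301 and 446 CPM in IRF8KO, a log2 fold change of 1.37 ± 0.32 (SE, edgeR adjusted p = 0.0114).

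The share of Cox6a2 in the counts of the pair was 2.01% ± 0.690 in WT and 20.0% ± 1.16 in IRF8KO (SD, n = 3). Every IRF8KO library had a share of at least 19.2% and every WT library at most 2.71%, and Cox6a1 was the main form in both genotypes. Cox6a2 (chr7:128205435-128206387, minus strand, GRCm38) shares 10.29% of its exonic length with Itgad, an integrin gene. Itgad itself had counts of 0, 6 and 0 in WT and 0, 1 and 1 in IRF8KO. As the printed sequences show, the pair differs throughout the end of the coding sequence, and no shared exact run reaches the 50 bases used to look for stretches common to several genes.

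**Figure D2:**
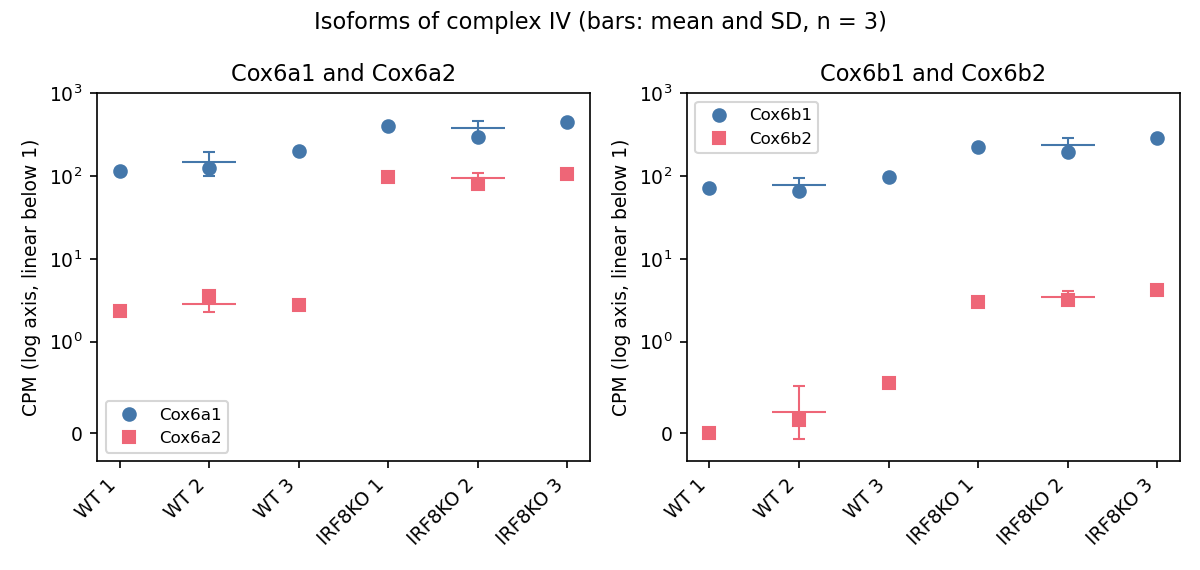
CPM of the isoform pairs Cox6a1 and Cox6a2 (left) and Cox6b1 and Cox6b2 (right) in each of the 6 libraries, on a log axis that is linear below 1, with the mean and SD of each group (n = 3) drawn at its middle library. Cox6a2 goes from below 4 CPM in WT to above 80 CPM in IRF8KO, and Cox6b2 stays below 5 CPM in all libraries.

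Other isoforms linked to particular tissues were rare. Cox6b2, the testis form of Cox6b1, had counts of 0, 2 and 4 in WT and 19, 35 and 39 in IRF8KO. It passed the expression filter only through its IRF8KO counts, and its log2 fold change of 3.81 has a standard error of 0.99 (edgeR adjusted p = 0.0195). Even in IRF8KO it made up 1.44% ± 0.129 of the counts of the Cox6b pair (SD, n = 3). The muscle forms Cox7a1 and Cox8b were not tested. Cox7a1 had counts of 0, 1 and 0 in WT and 5, 7 and 10 in IRF8KO, and Cox8b had 0, 0 and 0 against 0, 2 and 5. Cox4i2, a lung-enriched and oxygen-sensitive form, had counts of 0, 0 and 2 in WT and 0 in every IRF8KO library. Ndufa4l2, a hypoxia-induced relative of Ndufa4, had 0, 0 and 0 in WT and 0, 1 and 2 in IRF8KO. Cox7b2 and Cox8c had 0 counts in all 6 libraries.

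In complex V, the ATP synthase, 11 of 17 members were called higher, with a median log2 fold change of 1.21. The count was 6 without WT replicate 1, WT replicate 2 or IRF8KO replicate 3, and 7 without IRF8KO replicate 1. It was 11 with the GC and exonic length offset described below, and 3 with the principal-transcript offset, where the median was 0.44. Atp5e, the epsilon subunit of the rotating central stalk, had 16.1, 19.3 and 34.3 CPM in WT and 97.1, 74.5 and 130 CPM in IRF8KO. The lowest IRF8KO library was more than 2 times the highest WT library, and the log2 fold change was 2.11 ± 0.36 (SE, edgeR adjusted p = 0.00187). Atp5mpl, a small proteolipid bound to the membrane part, had 12.8, 19.8 and 21.5 CPM in WT and 65.0, 59.2 and 88.9 CPM in IRF8KO. Its log2 fold change was 1.97 ± 0.32 (SE, edgeR adjusted p = 0.00131). The membrane subunit Atp5j2 and the peripheral stalk subunit Atp5j rose by 1.65 and 1.60 on the log2 scale (edgeR adjusted p = 0.00272 and 0.00263). Atp5h, Atp5o, Atp5k and Atp5d were called too, with 1.49, 1.30, 1.21 and 1.13, while Atp5f1, Atp5l and Atp5s, at 0.37, 0.40 and -0.19, did not pass. Atp5k turned to -0.33 and -0.55 with the exonic and the principal-transcript offset. Atp5j shares 12.68% of its exonic length with its neighbour Gabpa.

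The 3 genes for subunit c, whose copies form the proton-driven ring and have the same mature protein, were all called. Atp5g3, the most abundant of them by count, had 56.4, 61.9 and 67.8 CPM in WT and 165, 126 and 190 CPM in IRF8KO (log2 fold change 1.37, edgeR adjusted p = 0.00534). Atp5g2 rose by 1.82 from a low level of 4.28 ± 1.22 CPM (SD, n = 3; edgeR adjusted p = 0.0156). Atp5g1, which has the longest principal transcript of all members at 4715 bases, rose by 0.95 (edgeR adjusted p = 0.0456). The mean shares of the 3 genes in their joint counts were 36.7%, 4.01% and 59.3% for Atp5g1, Atp5g2 and Atp5g3 in WT, and 30.4%, 6.04% and 63.5% in IRF8KO. The shares of Atp5g1 and Atp5g3 overlapped between the groups. Those of Atp5g2 were separate, at 3.68% to 4.58% in WT and 5.64% to 6.63% in IRF8KO.

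The catalytic head of the ATP synthase did not pass. Atp5b, the catalytic beta subunit, had 518, 503 and 902 CPM in WT and 1021, 760 and 978 CPM in IRF8KO. WT replicate 3 lay inside the IRF8KO range, and the log2 fold change was 0.52 ± 0.33 (SE, edgeR adjusted p = 0.293). Atp5a1, the alpha subunit, had 367, 373 and 563 CPM in WT and 539, 412 and 514 CPM in IRF8KO, with a log2 fold change of 0.17 that turned to -0.31 with library size alone (edgeR adjusted p = 0.734). The gamma subunit gene Atp5c1 was separate between the groups, at 112 ± 22.3 and 205 ± 39.6 CPM (SD, n = 3), and did not pass (edgeR adjusted p = 0.0511).

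Over all complexes, 0 of the 13 core or catalytic members were called, with a median log2 fold change of 0.37 (-0.10 with library size alone as scaling) and a range from -0.02 to 0.92. Of the 66 other tested subunits 47 were called, or 46 of 65 without Cox6b2, with a median of 1.29. The core or catalytic members had longer principal transcripts, with a median of 1623 bases against 731.5 for the others, and the part of length in this contrast was not tested. Of the 13, edgeR had 3 higher and 0 lower at an unadjusted p under 0.05, against 1760 and 1957 of all 11041 tested genes. DESeq2 and limma-voom called 0 of the 13. This count rests on WT replicate 3: without it, 7 of the 13 were called higher, namely Ndufs3, Ndufs7, Ndufs8, Ndufv1, Ndufv2, Sdhb and Atp5b, with a median of 0.71, against 18.1% of all tested genes. With the Apoe reads left out of the library size 4 were called, Ndufs7, Ndufs8, Sdhb and Atp5b, against 11.1% of all tested genes. With at least 10 counts required in every library 1 was called, Ndufs7, against 11.2% of all tested genes. The difference between core and other members was not tested. Complex IV summed to 705 ± 237 CPM in WT and 2224 ± 469 CPM in IRF8KO (mean ± SD of 3 libraries), a ratio of 3.16. For complex I the sums were 2066 ± 572 and 3978 ± 715 CPM, a ratio of 1.93, and for complex V they were 1749 ± 481 and 3007 ± 483 CPM, a ratio of 1.72. Complex II rose less in ratio, 1.46, but its sums were separate. Complex III ranged from 656 to 1373 CPM in WT and from 1081 to 1434 CPM in IRF8KO, which overlap.

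**Figure D3:**
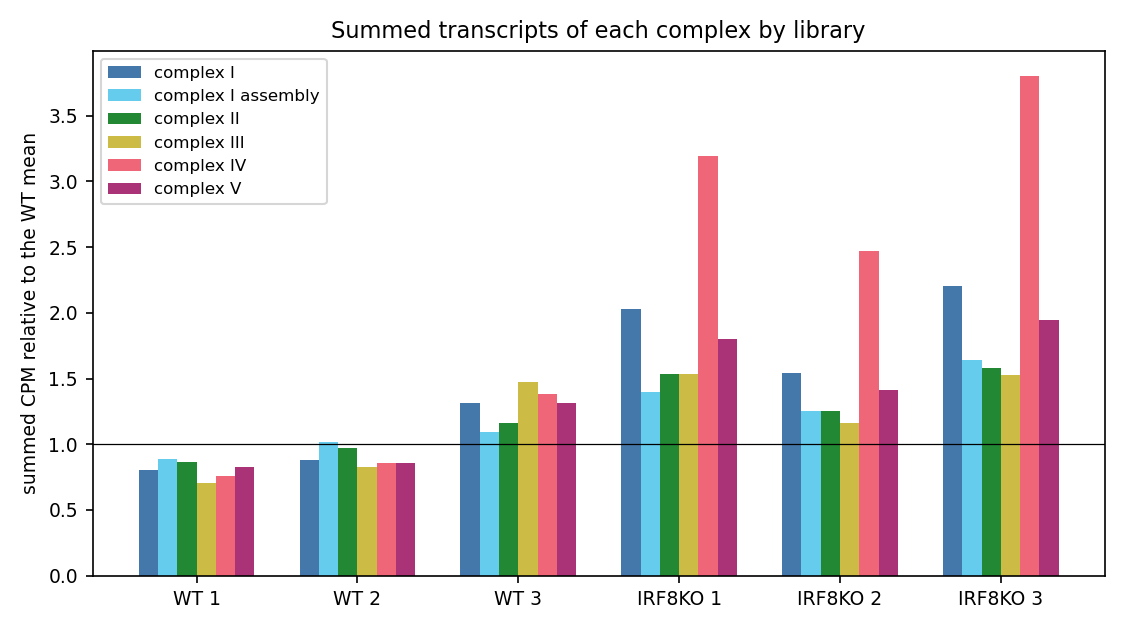
Summed CPM of each complex in each library, divided by the mean of the 3 WT libraries, with a line at 1. Complex IV reaches the highest ratios in all 3 IRF8KO libraries, and WT replicate 3 lies above the other WT libraries in every complex.

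The libraries of a genotype were not alike in these genes. Relative to the WT mean, the median member was shifted by -0.25, -0.06 and 0.31 on the log2 scale in WT replicates 1 to 3 and by 1.11, 0.83 and 1.37 in IRF8KO replicates 1 to 3. The groups were separate, with WT replicate 3 nearest to IRF8KO. Measured against each WT library alone, the median difference of the IRF8KO mean was 1.31, 1.19 and 0.88 over the members, with 83, 78 and 79 of 88 positive. Without WT replicate 3, 65 members were called higher, against 18.1% of all tested genes. Without WT replicate 1, WT replicate 2 or IRF8KO replicate 1, the counts were 28, 29 and 30, against 5.76%, 5.54% and 5.27% of all tested genes. Without IRF8KO replicate 2 or 3 they were 48 and 20, against 8.42% and 4.58%. In each of these fits 0 members were called lower. The 20 members called in every such fit were Ndufa1, Ndufa2, Ndufa4, Ndufa13, Ndufb8, Ndufv3, Uqcr10, Uqcr11, Uqcrh, Cox6a2, Cox6b1, Cox6c, Cox7a2, Cox7a2l, Atp5e, Atp5g3, Atp5h, Atp5j, Atp5j2 and Atp5mpl.

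Because Apoe fills so much of the IRF8KO libraries, the scaling bears on every level. As a share of raw gene counts the members made up 0.687%, 0.697% and 0.747% in WT and 0.835%, 0.955% and 1.09% in IRF8KO. With the Apoe reads left out of the total, the shares were 0.689% to 0.749% and 1.26% to 1.52%. Both sets were separate. With library size alone as scaling, the median of all tested genes moved from -0.11 to -0.61 and 35 members were called higher, all of them among the 48, against 5.9% of all tested genes. That scaling turned the fold change below 0 in 13 tested members, none of them among the 48. These include Sdha at -0.49, Cyc1 at -0.33, Atp5f1 and Atp5l at -0.16 each, Uqcrfs1 at -0.13, Ndufa9 at -0.12, and Ndufv1 and Uqcrc2 at -0.10 each. The members' median stood 1.25 above that of all tested genes with TMM and 1.27 above it with library size alone.

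The members are short, and fold change moved with transcript length. Their principal transcripts had a median length of 891.5 bases, against 2898 for all tested genes, and coding lengths of 436.5 and 1365 bases, while their GC content of 50.8% was close to the 50.7% of all tested genes. Of 36 tested members with transcripts under 750 bases 30 were called higher, with a median log2 fold change of 1.45. From 750 to under 1500 bases 15 of 30 were called, with a median of 1.05, and from 1500 to under 3000 bases 2 of 17, with a median of 0.21. At 3000 bases or more 1 of 5 was called, with a median of 0.73.

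In all tested genes the share called higher and the median fell at each step of length, while the members had a higher median and share in the longest class than in the one before it. Genes with transcripts under 750 bases were called higher in 38.2% of cases, with a median log2 fold change of 1.20. The following length classes had 19.4%, 8.21% and 5.7% called higher, with medians of 0.56, -0.09 and -0.39. Across the 88 members, the Spearman correlation of log2 fold change with transcript length was -0.66 and with coding length -0.70. Across 11034 tested genes it was -0.28 for transcript length. These are correlations across genes, which share the same 6 libraries and are not independent replicates.

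**Figure D4:**
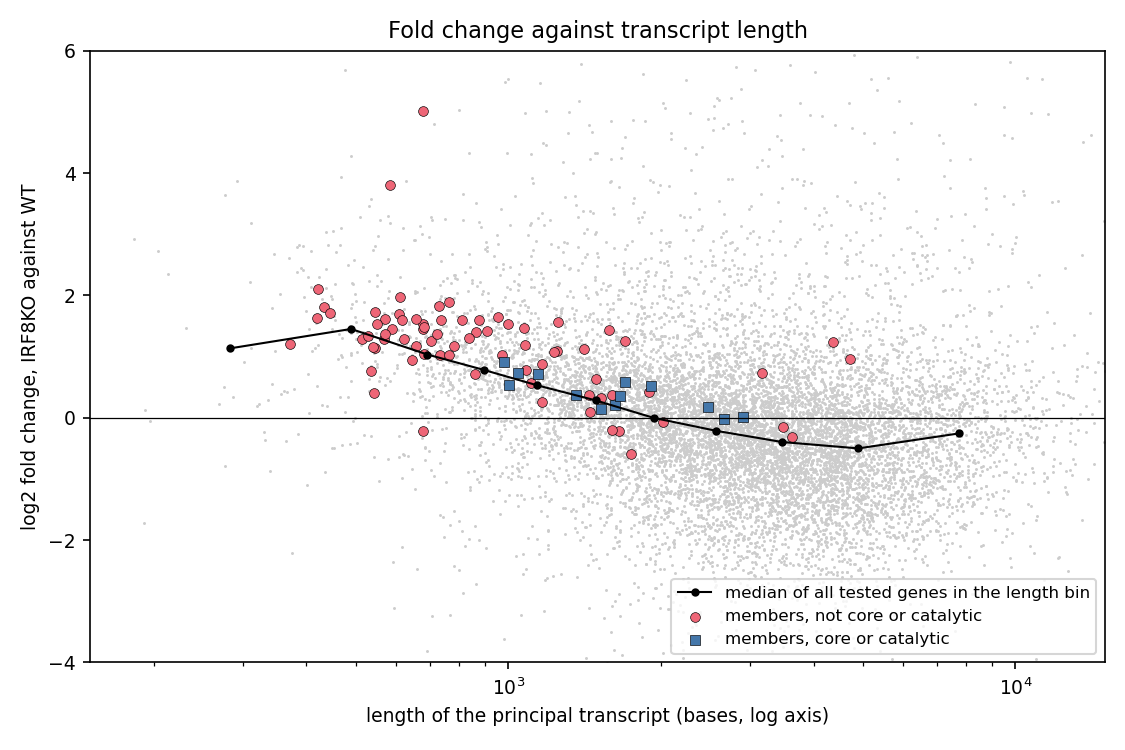
Log2 fold change of IRF8KO against WT by length of the principal transcript (log axis), for 11034 tested genes in grey (280 lie outside the plotted range), the median of all tested genes in each length bin as a black line, core or catalytic members as squares and other members as circles. The black line falls from above 1 for the shortest genes to below 0 for the long ones, and the core or catalytic members lie between -0.02 and 0.92.

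Fold change moved with GC content too. The Spearman correlation was 0.32 across the 88 members and 0.30 across 11034 tested genes, again across genes that share the libraries. In GC classes under 45%, 45% to 50%, 50% to 55% and 55% or more, 4 of 11, 11 of 26, 15 of 27 and 18 of 24 members were called, with medians of 1.03, 0.91, 1.29 and 1.31. Of all tested genes in these classes 4.49%, 8.22%, 12.2% and 12.3% were called higher, with medians of -0.80, -0.24, 0.12 and 0.17. As a share of the counts of all tested genes except Apoe, the 365 other tested genes under 750 bases made up 1.05% to 1.26% in WT. In IRF8KO they made up 3.30% to 3.97%. WT replicate 3 differed from the other WT libraries in the same way as IRF8KO in length, with a Spearman correlation of -0.29 between its log2 difference and transcript length over 11034 genes, and in GC content, with 0.65.

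With an offset for GC content and exonic length fitted in each library, 31 members were called higher instead of 48, of which 28 were among the 48, and the median was 0.53. With the offset on the principal transcript's GC content and length, chosen after seeing the data, 15 were called, of which 13 were among the 48, and the median was 0.26. With these offsets, 12% and 10.7% of all tested genes were called higher. The part of transcript length in the members' changes was not tested beyond these offsets.

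The members called in every fit, including both offsets and each fit with a library left out, were Ndufa4, Ndufa13, Ndufv3, Cox6a2, Cox6c, Cox7a2l and Atp5j2. Cox6a2 kept a log2 fold change of 3.68 ± 0.28 and 3.84 ± 0.27 (SE) under the offsets, and Ndufv3 1.36 ± 0.23 and 1.10 ± 0.21. Under both offsets 19 of the 48 lost their calls. Among them Ndufa2 had 0.17 and 0.29, Ndufa1 0.34 and 0.26, and Cox6b1 0.32 and 0.40 under the first and the second offset. Ndufaf8 had 0.05 and 0.14, and it was not called in 8 of 19 alternatives. Cox6a1 fell short of the threshold under both, at 0.09 and -0.06. Complex III had a median of 0.38 and 1 called member under the first offset, and a median of 0.10 and 0 called under the second. Uqcr10 and Uqcr11 lost their calls under both, with 0.38 and 0.39 under the first offset and 0.15 and 0.06 under the second. In complex II, Sdhd was called under the second offset, at 0.68 ± 0.20 (SE), and not under the first, at 0.40. Sdhc, not called without an offset, was called under both, at 0.78 and 1.13 (edgeR adjusted p = 0.0269 and 0.0147).

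Related genes outside the complexes were read from lists chosen by function. Of the 13 mitochondrially encoded subunits 7 were tested and 1 was called higher, or 14.3%, against 9.64% of all tested genes. The list summed to between 561 and 672 CPM in WT and between 859 and 1306 CPM in IRF8KO, which are separate. As a share of raw gene counts the list made up 0.0616% to 0.0814% in WT and 0.0714% to 0.134% in IRF8KO, which overlap. The called gene was mt-Co1, a catalytic subunit of complex IV, with 192, 169 and 219 CPM in WT and 518, 553 and 463 CPM in IRF8KO (log2 fold change 1.40, edgeR adjusted p = 0.00467). The tested complex I and complex III members of this list did not pass, among them mt-Nd1 at 0.50 and mt-Cytb at 0.61. mt-Co2, mt-Atp6, mt-Atp8 and mt-Nd4l are listed at 0 in every library, where only uniquely mapped reads were counted.

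Of 42 tested assembly factors outside the member rule 4 were called higher and 1 lower, with a median log2 fold change of 0.41. The share called higher was 9.52%, against 9.64% of all tested genes. DESeq2 and limma-voom called 8 and 6 higher and 1 lower each, against 12.1% and 10.9% of all tested genes called higher. At an unadjusted p under 0.05 edgeR had 9 higher and 3 lower, against 1760 and 1957 of all 11041 tested genes. Uqcc2 and Uqcc3, which assist complex III assembly, rose by 1.28 and 1.16 (edgeR adjusted p = 0.0295 and 0.0293). Cox19, a copper-related factor for complex IV, rose by 1.22, and Foxred1, a complex I factor, fell by 1.10 (edgeR adjusted p = 0.0114 and 0.0241). Of 77 tested mitochondrial ribosomal protein genes 15 were called higher and 0 lower, or 19.5%, with a median of 0.57. This compares with 9.64% of all tested genes and 19.4% of those with transcripts of 750 to under 1500 bases, and the median transcript of the list was 1316 bases. At an unadjusted p under 0.05 in edgeR, 34 of the 77 were higher and 1 lower, against 1760 and 1957 of all 11041 tested genes. DESeq2 and limma-voom called 18 and 19 of the 77 higher, against 12.1% and 10.9% of all tested genes. Mrpl52 and Mrps21, with transcripts of 418 and 488 bases, rose by 1.54 and 1.51 (edgeR adjusted p = 0.00401 and 0.00737).

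None of the regulators of mitochondrial gene expression was called higher. Of 19 tested 0 were called higher and 2 lower, against 9.64% and 9.46% of all tested genes, with a median log2 fold change of -0.75. Both lower calls, Gabpa and Hif1a, and 3 more of the 19, Mterf3, Tfam and Yy1, reached the cutoff for low counts in all 3 WT libraries but not in all 3 IRF8KO libraries, so these counts and the median are no support for a lower level of the list. At an unadjusted p under 0.05 in edgeR there were 0 higher and 5 lower, against 1760 and 1957 of all 11041 tested genes. DESeq2 and limma-voom called 0 regulators higher and 3 and 0 lower. Gabpa, the DNA-binding ETS subunit of GABP and the gene that overlaps Atp5j, had 8.75, 9.98 and 2.48 CPM in WT and 0, 1.53 and 0.759 CPM in IRF8KO. The groups were separate downward, and the log2 fold change was -3.11 ± 0.93 (SE, edgeR adjusted p = 0.0362). Nrf1 had 73.9, 80.6 and 79.1 CPM in WT and 69.0, 44.0 and 48.6 CPM in IRF8KO, with -0.53 (edgeR adjusted p = 0.199). Ppargc1a, the coactivator PGC-1alpha, was at or near 0 in all libraries. The transcripts of these regulators are long, with a median of 3488 bases.

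Enzymes that feed the chain make its NADH and succinate. Of 25 tested genes of pyruvate dehydrogenase and the citric acid cycle 0 were called higher and 2 lower, again against 9.64% and 9.46%, with a median log2 fold change of -0.10. At an unadjusted p under 0.05 in edgeR there were 1 higher and 5 lower, against 1760 and 1957 of all 11041 tested genes. DESeq2 and limma-voom called 0 of these enzyme genes higher and 2 and 3 lower. Dld, a subunit shared by the 2-oxoacid dehydrogenases, fell by 2.62 (edgeR adjusted p = 0.00422), and Pdp1, a phosphatase that activates pyruvate dehydrogenase, fell by 4.49 (edgeR adjusted p = 0.00727) and passed the filter only with its WT counts. Among 23 tested genes for electron carriers, ATP exchange and coupling, 1 was called higher, or 4.35%, and 1 lower. Coq7 of ubiquinone synthesis rose by 1.69 and Etfdh fell by 1.99 (edgeR adjusted p = 0.00715 and 0.0398). Among 14 tested cristae genes 2 were called higher, or 14.3%, and 1 lower, against 9.64% and 9.46% of all tested genes. Minos1 and Chchd10 rose by 1.56 and 3.04, and Immt, the large organizer of cristae junctions, fell by 1.39 (edgeR adjusted p = 0.00626, 0.0183 and 0.00757). Chchd10 passed the filter on low counts only with its IRF8KO counts.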

How the data were processed

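Polyadenylated RNA of sorted microglia was measured in 3 WT and 3 IRF8KO libraries, grouped by the genotype in the labels. The authors deposited raw counts per gene in the layout of STAR's gene counts: 4 summary lines, then an unstranded count and 1 count per strand, without molecular identifiers. The submitters' processing notes name bcl2fastq, STAR 2.5.2b, Picard 2.17.11, Subread, featureCounts and mm10, and the role of each is not given in the sources used here. The unstranded count was used, and the summary lines stayed out of library sizes. Of 49585 genes 49326 were matched to GENCODE M21 (GRCm38), which gave symbols, lengths, GC content and overlaps, and 259 were not.

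Counts were tested over all genes with edgeR 4.0.16 in R 4.3.3 (default expression filter with a minimum count of 10, TMM, quasi-likelihood F test, genotype only), which left 11041 genes. Called means a Benjamini-Hochberg adjusted p under 0.05. DESeq2 1.42.0, limma-voom 3.58.1, other scalings, filters and strand columns, GC and length offsets (loess span 0.5), a replicate block and fits without each library were alternatives. In a test on simulated data the fit missed most of the changes put in. A gene that did not pass is therefore not shown to be unchanged. The growth protocol in the labels speaks of isolation from each brain, and the titles number the libraries as replicates without naming animals, so p-values measure only the spread between these libraries. Library sizes of 3658917 to 11098363 set the counting precision, and PCR copies were not removed by identifier.

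The members, gene lists and tests were chosen with earlier results of these data known. Within each complex, up to 4 called members by smallest p, the 2 with the highest CPM per kb of exon, and all isoform pairs are named with values, and from each related list at most 4 called genes. Other members, among them the core subunits, Ndufv3, Ndufaf7 and the remaining members of complexes II, III and V, were named after their values were seen. The values of 1 member are not reported here. Cell type markers covered neurons, red blood cells, endothelial and mural cells, oligodendrocytes, astrocytes, lymphocytes, homeostatic microglia, neutrophils, border-associated macrophages and monocytes.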

Additional observations from a re-analysis of the deposited data

How the results depend on the processing

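Of 587 values of the 31 genes named by the rule over the alternatives, 506 kept their direction and their side of the threshold, 69 lost the call, 7 gained one and 5 changed sign. With library size alone as scaling, 1 member (Ndufaf7) was called lower, the members' median log2 fold change was 0.66, the medians of complexes I to V were 0.69, 0.23, -0.10, 1.08 and 0.68, and Atp5a1 turned to -0.31. Over all tested members, 13 changed sign with that scaling, and 15 and 21 with the exonic and the principal-transcript offset, of which 0, 2 and 7 were among the 48 called. Library size alone put 25.4% of all calls on the higher side, against 50.5% with TMM and 59.3% with Apoe left out of the library size. With the GC and exonic length offset, 31 members were called higher, the median was 0.53, complexes I to V had 0.42, 0.39, 0.38, 0.94 and 1.20, and Ndufs8 turned to -0.21. With the replicate block and that offset together the values were 31 members, 0.51, then 0.41, 0.38, 0.38, 0.95 and 1.14 for complexes I to V, and -0.20 for Ndufs8. With the principal-transcript offset, added after seeing the data, they were 15 members, a median of 0.26, then 0.22, 0.53, 0.10, 0.67 and 0.44 for complexes I to V, -0.23 for Ndufs8 and -0.062 for Cox6a1. The cause of these shifts was not tested. Leaving out 1 library at a time, between 910 (without IRF8KO replicate 3) and 4003 (without WT replicate 3) genes and between 20 and 65 members were called, and the members' median stayed between 1.00 and 1.28. Where a group then had 2 libraries, the fit pooled the spread of both groups. The replicate block alone gave 49 members and 2353 genes called. Same-numbered libraries deviated from their group means with correlations of -0.26, 0.33 and 0.11, and not every library correlated best with its own number. With 3 libraries per group these correlations cannot show whether same-numbered libraries share a litter or batch, and the labels give only the number. With 3 libraries per group, genes with few reads such as Cox6b2, and the 6 members that were not tested, have the least precise values.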
